A study of Mus musculus with 31 samples.

Results

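The 8 genes described here are markers of the medium spiny neurons of the striatum, the projection neurons that receive the dopamine input of the basal ganglia. They were listed by symbol with earlier results of these data known. Each was looked up in the symbol column of the count table, which holds 48795 genes. All 8 were found once each, and all 8 passed the filter on low counts. Tac1 marks the direct pathway, Adora2a, Penk and Gpr6 mark the indirect pathway, and Ppp1r1b, Rgs9, Pde10a and Adcy5 are expressed in neurons of both pathways.

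Direct pathway neurons carry the Drd1 dopamine receptor and send their axons to the output nuclei of the basal ganglia, and in textbook models their firing favours movement. Indirect pathway neurons carry the Drd2 receptor and the adenosine receptor Adora2a, reach the output nuclei through the external pallidum, and restrain movement. Dopamine raises cyclic AMP in the former and lowers it in the latter. Several of the members are steps of that cyclic AMP pathway, which is very strongly expressed in these cells. None of the 8 is confined to the striatum: Penk and Tac1 are also made in other forebrain, hypothalamic and brainstem neurons, Ppp1r1b in deep cortical neurons, and Adcy5 outside the brain too.

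The study exposed mice to deltamethrin, a pyrethroid insecticide that holds voltage-gated sodium channels open, during development, and compared them with control mice. Total RNA was sequenced from aliquots of homogenised half-brains in 13 control and 18 deltamethrin libraries. The strain, age, dose, vehicle, litter and route are not given in the sources used here, and every library had counts of the Y-linked gene Ddx3y (388 or more) with at most 6 of Xist. Nothing in the labels says whether libraries of a group came from separate animals, so p-values measure the spread between libraries. Because the sample is brain and not dissected striatum, fewer medium spiny neurons in an aliquot and less RNA per neuron cannot be told apart in any value below.

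Total counts ran from 17570311 to 35716869 in control and from 24563143 to 38680621 in deltamethrin. Mitochondrial ribosomal RNA took from 7.32% to 40.2% of a library. Control replicate 2 stood apart, with the lowest total and the highest mitochondrial share. Values are given as CPM, read counts brought to a common library size after scaling by the trimmed mean of M-values (TMM). A fold change is deltamethrin over control on the log2 scale from edgeR's quasi-likelihood test, with its standard error (SE), and p-values were adjusted over all 19529 genes tested.

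The peptides of the 2 neuropeptide members are what set the output of the pathways apart chemically, so the stretches of the genes that encode them are shown first. Penk (chromosome 4, 4133531 to 4138819, minus strand, GRCm38) encodes proenkephalin, which is cut at paired basic residues. Its longest open reading frame in GENCODE M21 has 807 bases and holds 6 stretches that encode Met-enkephalin and 1 that encodes Leu-enkephalin. The Met-enkephalin stretches at bases 559 to 573 and 784 to 798 are not followed directly by codons for a pair of basic residues. Tac1 (chromosome 6, 7554879 to 7565834, plus strand) encodes the precursor of substance P and neurokinin A, each present once in a frame of 393 bases. In the lines below the capitals mark the bases that encode the peptide, with 6 flanking bases of the same frame on each side in lower case.
Penk, Met-enkephalin, bases 298 to 312 of the frame: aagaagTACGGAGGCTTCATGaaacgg
Penk, Met-enkephalin, bases 631 to 645 of the frame: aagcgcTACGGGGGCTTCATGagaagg
Penk, Leu-enkephalin, bases 691 to 705 of the frame: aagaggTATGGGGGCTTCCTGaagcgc
Tac1, substance P, bases 172 to 204 of the frame: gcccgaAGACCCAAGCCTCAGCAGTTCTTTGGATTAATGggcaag
The Leu-enkephalin stretch is as long as the Met-enkephalin stretches, 15 bases, and the substance P stretch has 33. The count table gives 1 value per gene, so it cannot separate the peptides of a precursor.

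No member separated the groups. Of the 8 members 0 had an adjusted p-value under 0.05, beside 0% of all genes tested (0 of 19529, smallest adjusted p 0.441 by edgeR, with 853 at an unadjusted p under 0.05, and 0 by DESeq2). All 8 log2 fold changes were below 0, from -0.30 (Gpr6) to -0.012 (Adcy5) with a median of -0.13, while 49.5% of all genes lay below 0 and the median of all genes was 0.0014. Most members varied together between libraries, as described below, so the 8 signs are not independent of each other. With all 31 libraries Gpr6 was the single member with an unadjusted p-value under 0.05 in the lower direction, a class that held 2.37% of all genes (462). Ppp1r1b joined it when deltamethrin replicate 10 was left out. The sign of Adcy5 turned without scaling factors (0.015). Each member's groups overlapped over most of their range.

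**Figure D1:**
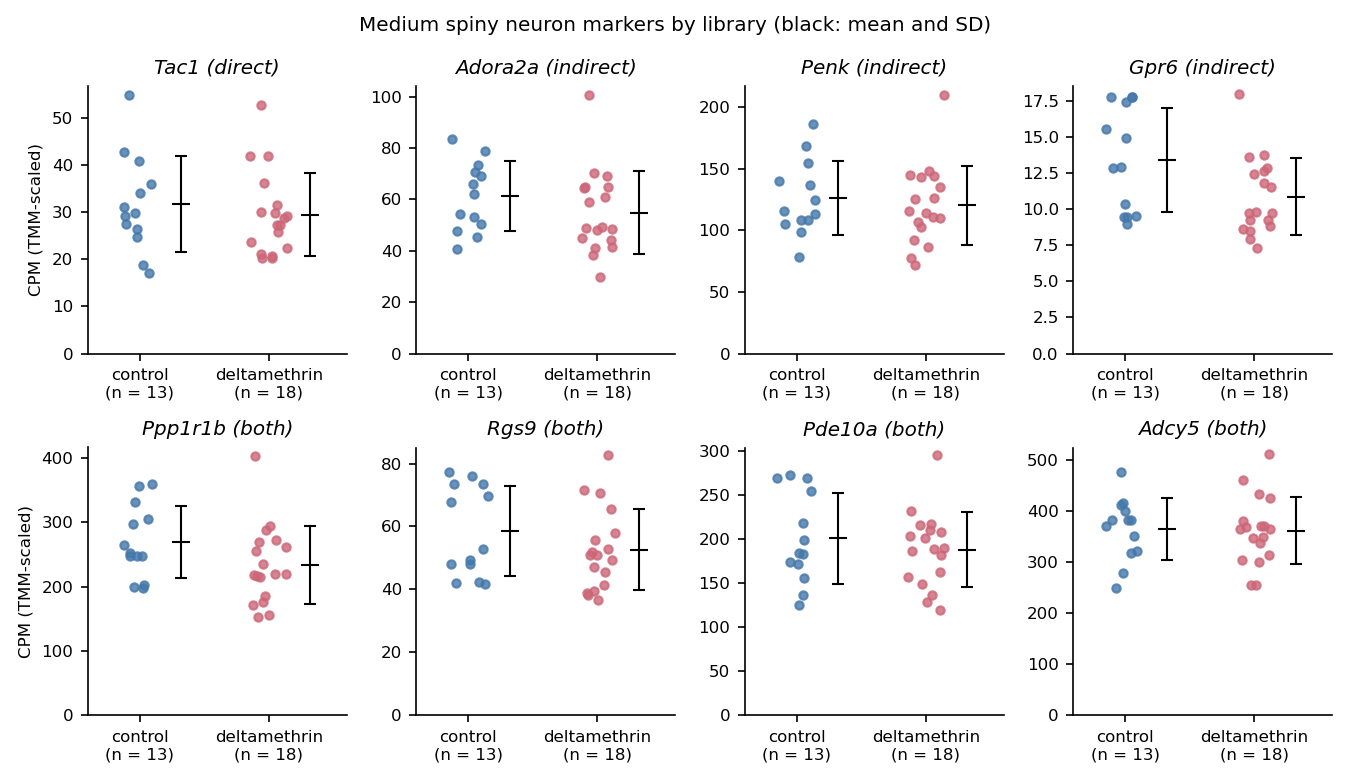
Level of each of the 8 members in CPM (linear axis from 0) in every library, 13 control and 18 deltamethrin, with the mean and SD of each group in black and the pathway in brackets. The groups overlap in every panel, and deltamethrin replicate 10 is the highest deltamethrin library for all members except Pde10a and Adcy5.

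Tac1, the direct pathway member, had a lowest, median and highest level of 17.1, 29.7 and 54.8 CPM in control and of 20.2, 27.96 and 52.7 CPM in deltamethrin. The highest and the lowest library of all 31 were both controls (replicates 2 and 9), so the deltamethrin values lay wholly within the control range. The means were 31.7 ± 10.2 CPM (SD, n = 13) and 29.5 ± 8.82 CPM (SD, n = 18), and the log2 fold change was -0.10 ± 0.15 (SE), with a p of 0.488 and an adjusted p of 0.874 by edgeR. That value rested in large part on control replicate 2, without which it was -0.020 (p = 0.889, adjusted 0.983 by edgeR). It was -0.031 without scaling factors, -0.059 and -0.067 without control replicate 1 or 7, and -0.155 and -0.171 without control replicate 9 or deltamethrin replicate 10.

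Among the indirect pathway members, Adora2a (chromosome 10, 75316877 to 75334784, plus strand) encodes the adenosine receptor that couples to Gnal and raises cyclic AMP against the action of Drd2. Its lowest, median and highest levels were 40.8, 62.03 and 83.7 CPM in control and 29.9, 49.1 and 100.6 CPM in deltamethrin. Deltamethrin libraries held both ends of the range, with 2 below the lowest control (including replicate 13) and 1, replicate 10, above the highest. The means were 61.2 ± 13.6 and 54.9 ± 16.3 CPM (SD, n = 13 and 18), a log2 fold change of -0.16 ± 0.13 (SE; p = 0.229, adjusted 0.821 by edgeR).

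Penk levels were 78.2, 116.0 and 186.3 CPM at the lowest, median and highest control, and 71.6, 114.7 and 210.1 CPM in deltamethrin. The medians were close, and 10 of 18 deltamethrin libraries lay below the control median. The means of 126.1 ± 30.2 and 120.2 ± 32.3 CPM (SD, n = 13 and 18) gave a log2 fold change of -0.069 ± 0.13 (SE; p = 0.584, adjusted 0.905 by edgeR). Single libraries moved it, to -0.011 without control replicate 3, to -0.028 without control replicate 1 and to -0.134 without deltamethrin replicate 10. Here control replicate 2, the highest library for Tac1, was the lowest of the controls.

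Gpr6 (chromosome 10, 41069977 to 41072285, minus strand) encodes an orphan receptor with high constitutive activity that raises cyclic AMP. It was the lowest expressed member by CPM, with 191 to 560 counts per library. Its lowest, median and highest levels were 8.99, 12.9 and 17.8 CPM in control and 7.34, 9.76 and 18 CPM in deltamethrin, and 15 of 18 deltamethrin libraries lay below the control median. Control replicates 1, 2, 3, 7, 12 and 13 lay at 14.96 CPM or above, as did deltamethrin replicate 10, and 5 deltamethrin libraries lay below the lowest control. The means were 13.4 ± 3.61 and 10.9 ± 2.69 CPM (SD, n = 13 and 18) and the log2 fold change was -0.30 ± 0.13 (SE), a 95% interval of -0.56 to -0.045. The unadjusted p was 0.0218 and the adjusted p 0.813 by edgeR, so Gpr6 did not pass over all genes. The unadjusted p stayed between 0.0045 and 0.048 when each library was left out in turn.

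Of the members shared by both pathways, Ppp1r1b (chromosome 11, 98348404 to 98357796, plus strand) encodes the dopamine- and cyclic AMP-regulated phosphoprotein that inhibits protein phosphatase when protein kinase A has phosphorylated it. It had 197.7, 251.5 and 359.6 CPM at the lowest, median and highest control and 152.7, 219.4 and 403.8 CPM in deltamethrin. Below the lowest control lay 5 deltamethrin libraries, and 1 (replicate 10) lay above the highest. The means were 269.7 ± 56.1 and 233.8 ± 61.0 CPM (SD, n = 13 and 18) and the log2 fold change was -0.21 ± 0.12 (SE; p = 0.0898, adjusted 0.813 by edgeR). Without deltamethrin replicate 10 it was -0.269 (unadjusted p = 0.0166, adjusted 0.663 by edgeR). In that fit 802 of 19475 genes had an unadjusted p under 0.05 in the lower direction. The unadjusted p ran from 0.0166 to 0.175 when each library was left out in turn.

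Rgs9 (chromosome 11, 109225355 to 109298129, minus strand) encodes a regulator of G-protein signalling that shortens dopamine and opioid receptor signals in these neurons. Its levels were 41.7, 52.9 and 77.4 CPM at the lowest, median and highest control and 36.7, 50.9 and 82.8 CPM in deltamethrin. As for Ppp1r1b, 5 deltamethrin libraries lay below the lowest control and 1 above the highest. The means of 58.6 ± 14.3 and 52.6 ± 12.9 CPM (SD, n = 13 and 18) gave a log2 fold change of -0.16 ± 0.12 (SE; p = 0.2, adjusted 0.815 by edgeR).

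Pde10a (chromosome 17, 8525372 to 8986648, plus strand) encodes the phosphodiesterase that breaks down cyclic AMP and cyclic GMP in medium spiny neurons. It ranged from 124.8 over a median of 183.9 to 272.1 CPM in control and from 119.7 over 189.3 to 294.8 CPM in deltamethrin. Its median was the higher of the 2 groups in deltamethrin, where 7 of 18 libraries lay below the control median, although the mean was lower (200.6 ± 51.5 and 187.6 ± 42.2 CPM, SD, n = 13 and 18). The log2 fold change was -0.096 ± 0.12 (SE; p = 0.428, adjusted 0.86 by edgeR). It was -0.048 without control replicate 12, -0.055 without control replicate 1 or 3, and -0.048 without scaling factors. Without control replicate 10 or deltamethrin replicate 2 it was -0.141.

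Adcy5 (chromosome 16, 35154877 to 35305738, plus strand) encodes the main adenylyl cyclase of these neurons, the enzyme through which Drd1, Drd2 and Adora2a act. It ranged from 248.3 over 382.3 to 476.8 CPM in control and from 255.1 over 365.6 to 511.8 CPM in deltamethrin. The lowest library was again control replicate 2. The means were 365.0 ± 61.3 and 362.1 ± 66.6 CPM (SD, n = 13 and 18), a log2 fold change of -0.012 ± 0.094 (SE; p = 0.901, adjusted 0.979 by edgeR) with a 95% interval of -0.20 to 0.18.

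Levels of different genes can be set side by side only per length. Per kilobase of annotated exon, the control means were 92.1 ± 19.2 CPM for Ppp1r1b, 77.2 ± 18.5 for Penk, 50.8 ± 8.54 for Adcy5, 20 ± 4.44 for Adora2a, 15.6 ± 4.01 for Pde10a, 9.33 ± 3.003 for Tac1, 9.18 ± 2.24 for Rgs9 and 7.52 ± 2.02 for Gpr6 (SD, n = 13). Adcy5 and Adora2a were the only neighbours in this order whose ranges of 1 SD did not overlap. Such ranges leave out that all members were measured in the same libraries, and the order within single libraries was not tested. The order of the means was the same in deltamethrin, where Ppp1r1b had 79.9 ± 20.8 and Penk 73.6 ± 19.8 CPM per kilobase (SD, n = 18). The exon length joins all annotated isoforms, which lowers the value of a gene with many of them, such as Pde10a with 12849 bases. Some members overlap other annotated genes on the opposite strand, and whether reads were counted by strand is not given in the sources used here. Over all libraries A830012C17Rik had 66 counts beside 119349 for Penk, and 1700003D09Rik 983 beside 238008 for Ppp1r1b. Within Pde10a (188791 counts) lie Gm15425 with 1237, Gm17087 with 550 and Gm15426 with 176, and within Adcy5 (358557) lies Gm25179 with 61. Gm49702, on the same strand as Adcy5, was not analysed here.

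Whether each indirect pathway member differed from Tac1 in its group difference was tested within libraries, where any scaling cancels. Tac1 is the only direct pathway member, so all 3 pairs share it and do not stand for the pathways as wholes. In each library the log2 CPM of Tac1 was subtracted from that of each indirect member, and the groups were compared by two-sided permutation with 100000 resamples, adjusted over the 3 pairs. Gpr6 minus Tac1 ranged from -1.62 to -0.81 in control, with a mean of -1.22 ± 0.26 (SD, n = 13), and from -1.74 to -1.04 in deltamethrin, with a mean of -1.42 ± 0.21 (SD, n = 18). It was lower by 0.20 in deltamethrin, with 15 of 18 libraries below the control median (permutation p = 0.0267, adjusted 0.0801), which did not pass.

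The groups lay closer for the other pairs. Adora2a minus Tac1 averaged 0.98 ± 0.32 in control and 0.90 ± 0.26 in deltamethrin (SD, n = 13 and 18; permutation p = 0.41, adjusted 0.615). Penk minus Tac1 averaged 2.02 ± 0.52 and 2.03 ± 0.36 (SD; permutation p = 0.928, adjusted 0.928). Control replicate 2 had the lowest value of all libraries for both of these pairs, 0.18 and 0.51. Without it the Gpr6 difference was -0.23 (permutation p = 0.00975, adjusted 0.0292), that of Adora2a was -0.154 (permutation p = 0.0977, adjusted 0.147), and that of Penk turned to -0.11 (permutation p = 0.378, adjusted 0.378). The Gpr6 difference also passed, at -0.22 with an adjusted p of 0.0153, once the log2 mitochondrial rRNA share was taken out by regression. It likewise passed without control replicate 8 or 10 or deltamethrin replicate 7 or 11, with adjusted p-values between 0.0292 and 0.169 over all 31 libraries left out in turn.

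Gpr6 had the largest of these differences, so its promoter is shown as RefSeq gives it on GRCm38.p6, 250 bases before the RefSeq transcription start in the direction of the gene. Entries were found for 5 of the 8 members (Tac1, Gpr6, Rgs9, Adcy5 and Pde10a). RefSeq's starts for Tac1 and Pde10a lie inside the GENCODE genes given above, so their windows overlap the annotated genes and are not printed. Capitals mark matches, on either strand, to the cyclic AMP response element TGACGTCA, its core TGACG, the TATA box TATAAA, the GC box GGGCGG and the E box CACGTG (held by 6.02% of windows). The full element contains the core, so the 2 overlap.
Gpr6, chr10:41072291-41072540, minus strand: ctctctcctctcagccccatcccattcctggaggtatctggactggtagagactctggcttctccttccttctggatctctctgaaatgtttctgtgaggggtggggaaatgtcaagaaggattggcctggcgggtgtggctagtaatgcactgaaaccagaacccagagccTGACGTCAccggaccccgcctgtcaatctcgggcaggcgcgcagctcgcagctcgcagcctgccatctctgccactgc
The Gpr6 window holds 1 full cyclic AMP response element, a match found in 1.55% of 32851 promoter windows of the same length. The windows of Rgs9 and Adcy5 hold 0 matches to the core, which 17.8% of windows hold. Of the windows that overlap their genes, that of Tac1 holds 2 core matches and 1 E box, and the 2 of Pde10a hold 0 core matches. Adcy5 has 4 GC boxes (32.7% of windows hold any) and 78.0% G and C, against a median of 52.4% over all windows, and Rgs9 has a TATA box match (12.4% of windows). A match is a string of letters and not a measured binding site.

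The members varied more between libraries of a group than genes of like level did. The SD of log2 CPM within groups was 0.42 for Tac1, above that of 94.9% of the 2803 genes within 0.5 log2 units of its mean level, whose median SD was 0.20. For Adora2a it was 0.38 (above 92.7% of such genes), for Rgs9 0.35 (89.1%), for Gpr6 0.36 (87.8%), for Penk 0.36 (85.6%), for Pde10a 0.35 (77.3%) and for Ppp1r1b 0.34 (71.2%). Adcy5 was the exception at 0.26 (48.3%). These percentages describe the libraries, since genes are not independent.

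This spread was shared. In deltamethrin replicate 10 the levels of Adora2a, Penk, Gpr6, Ppp1r1b and Rgs9 were the highest of all 31 libraries, with Tac1 second to control replicate 2. In deltamethrin replicate 13 those of Adora2a, Gpr6, Ppp1r1b, Rgs9 and Pde10a were the lowest of all. Control replicates 1 and 3 ranked among the 8 highest libraries for all 8 members, and deltamethrin replicate 13 among the 8 lowest for all 8. Control replicates 1, 3, 7 and 12 and deltamethrin replicates 10 and 14 ranked among the 8 highest for 6 or more members. The libraries among the 8 lowest for 6 or more members were deltamethrin replicates 1, 3, 4, 6 and 13. The most for a control was 5 members (replicate 9). Of the 31 libraries 18 were deltamethrin. The members varied together, so their ranks are not separate observations, and the split between groups was not tested.

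Over the 28 pairs of members, Pearson's r of log2 CPM across the 31 libraries ran from -0.14 to 0.95 with a median of 0.68, and Spearman's rho from -0.14 to 0.96 with a median of 0.69. An adjusted p-value under 0.05 was reached by 23 pairs (permutation, adjusted over the 28). The closest pair was Adora2a and Ppp1r1b, with r = 0.948 and rho = 0.957 (each permutation p = 1e-05, the smallest these can give, adjusted 2.15e-05 for r). Its r was 0.922 within control, 0.960 within deltamethrin and 0.932 without the 2 libraries farthest from the median of Adora2a. Adora2a, Gpr6, Ppp1r1b and Rgs9 formed a tight set, in which r was 0.891 or higher for each pair.

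Tac1 followed Gpr6 (r = 0.811, rho = 0.760, each permutation p = 1e-05, adjusted 2.15e-05 for r) and Adora2a (r = 0.755, permutation p = 1e-05, adjusted 2.15e-05; rho = 0.736, permutation p = 3e-05). Its relation with Penk was looser, with r = 0.406 (permutation p = 0.0233, adjusted 0.0293) and rho = 0.482 (permutation p = 0.00649). That r was 0.176 within control, 0.572 within deltamethrin, 0.524 without the 2 libraries farthest from the Tac1 median and 0.613 without control replicate 2. The pairs that did not pass were Tac1 with Pde10a (r = 0.156, permutation p = 0.404, adjusted 0.419; rho = 0.119, permutation p = 0.523) and Adcy5 with Tac1, Gpr6, Ppp1r1b and Rgs9. The lowest r was that of Tac1 with Adcy5, -0.138 (permutation p = 0.46, adjusted 0.46; rho = -0.142, permutation p = 0.444).

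**Figure D2:**
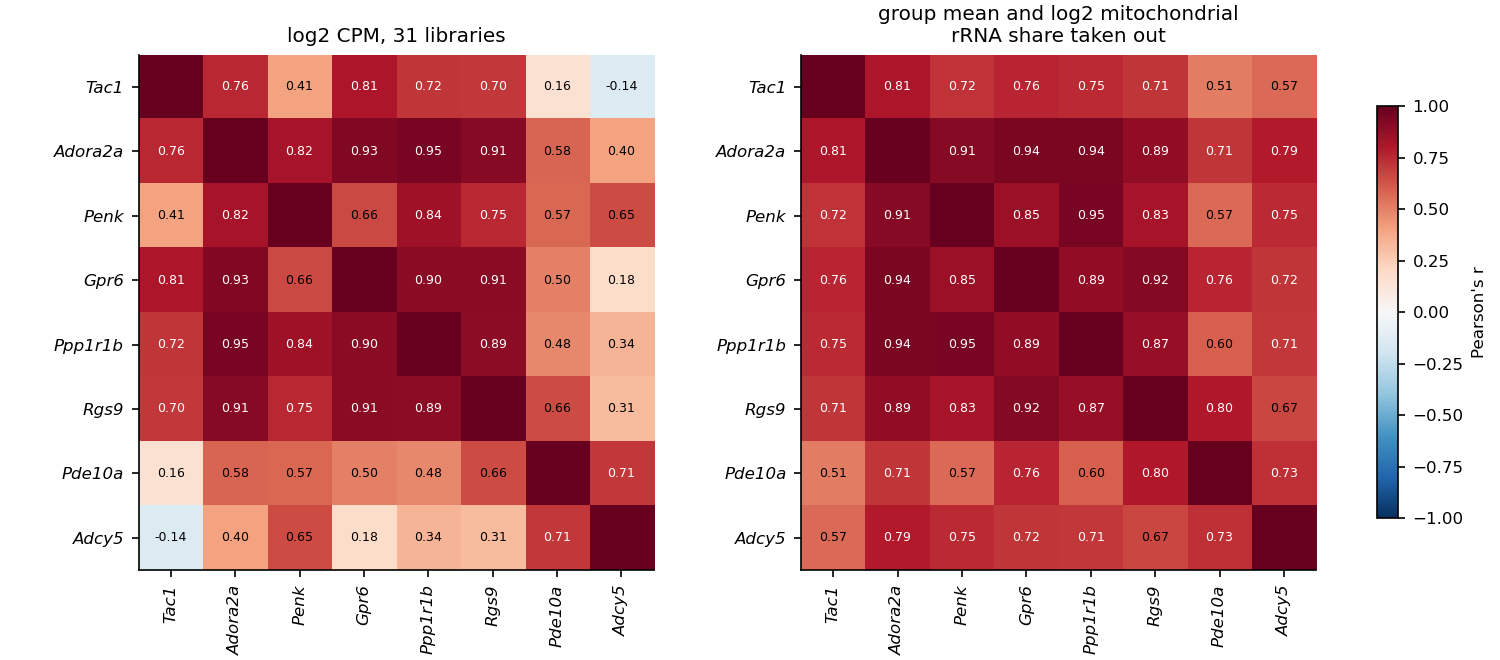
Pearson's r of each pair of the 8 members over 31 libraries (colour from -1 to 1, value printed), from log2 CPM on the left and after the group mean and the log2 mitochondrial rRNA share were taken out on the right. On the left Tac1 and Adcy5 reach only -0.14, and on the right every pair is at 0.51 or above.

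Tac1 and Adcy5 stood at opposite ends in their relation to the mitochondrial rRNA share. Across the 31 libraries Tac1 was higher where the log2 share was higher (r = 0.801, rho = 0.766, each permutation p = 1e-05, adjusted 0.00016 for r over the 16 relations computed), with r of 0.775 within control, 0.830 within deltamethrin and 0.739 without the 2 farthest libraries. Adcy5 was lower there (r = -0.533, permutation p = 0.00205, adjusted 0.0082; rho = -0.471, permutation p = 0.00786), with r of -0.694 within control, -0.408 within deltamethrin and -0.408 without the 2 farthest libraries. Gpr6 had r = 0.562 (permutation p = 0.00089, adjusted 0.00475; rho = 0.513, permutation p = 0.00374), with 0.641 and 0.513 within the groups and 0.431 without the 2 farthest. The other members did not pass after adjustment, and Penk was nearest 0 (r = -0.033, permutation p = 0.859, adjusted 0.859; rho = 0.104, permutation p = 0.576).

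**Figure D3:**
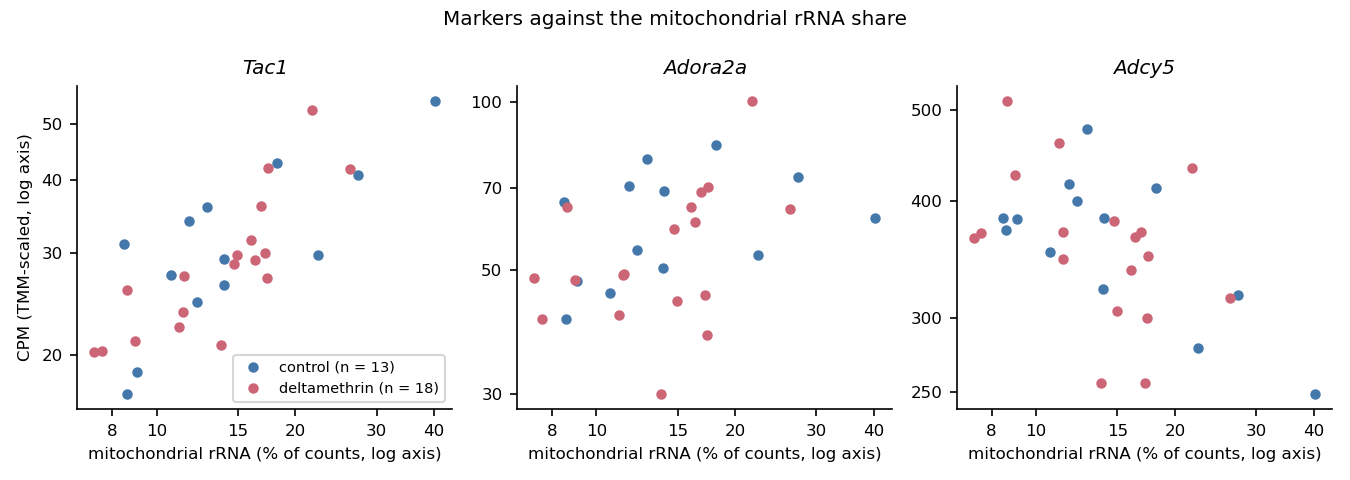
Level of Tac1, Adora2a and Adcy5 (CPM, log axis) against the share of counts in mitochondrial rRNA (percent, log axis), 1 point per library, 13 control and 18 deltamethrin. Tac1 is higher and Adcy5 lower in libraries with a larger share, with r of 0.801 and -0.533, and the groups intermingle.

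Total count gave the mirror image, with adjusted p-values under 0.05 for Tac1 (r = -0.581, permutation p = 0.00048, adjusted 0.00384; rho = -0.559, permutation p = 0.00121), Gpr6 (r = -0.457, permutation p = 0.00871, adjusted 0.0232; rho = -0.398, permutation p = 0.0276) and Adcy5 (r = 0.509, permutation p = 0.00334, adjusted 0.0107; rho = 0.337, permutation p = 0.0629). Within deltamethrin these were -0.324, -0.179 and 0.418, and within control -0.783, -0.569 and 0.682. Without the 2 libraries of most distant total they were -0.435, -0.307 and 0.318. With the group mean and the log2 mitochondrial share taken out, all 28 pairs of members had an adjusted permutation p-value under 0.05, with r from 0.511 (Tac1 and Pde10a) to 0.949 (Penk and Ppp1r1b), and the r of Tac1 and Adcy5 was 0.569 (adjusted permutation p = 0.000913).

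The genes whose pattern was most like that of the members were ranked by Pearson's r over the 31 libraries, after each group mean was taken out, with the mean of the 8 members scaled to unit SD. Out of 19521 other genes the 10 highest included Pde1b (0.925), a calcium-dependent phosphodiesterase, the dopamine receptors Drd1 (0.918) and Drd2 (0.911), Sh3rf2 (0.900), Serpina9 (0.894), Cd4 (0.882), Syndig1l (0.882), the retinoic acid receptor Rarb (0.866) and Clspn (0.840). The r of Pde1b was 0.977 and that of Drd2 0.954 once the mitochondrial share was also taken out. Cd4, best known as the coreceptor of helper T cells, averaged 7.68 CPM over controls against 6.23 CPM after deltamethrin (log2 fold change -0.31 ± 0.14, SE; unadjusted p = 0.0324 by edgeR). An unadjusted p under 0.05 in the lower direction was held by 2.37% of all genes. After adjustment 0 of 19529 genes passed, so Cd4 did not. Cd4 was not on any list written for this comparison. An r over 0.5 was reached by 155 genes, 0.794% of the 19521.

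Of 18 listed genes of both pathways 12 had an r over 0.5 with the member mean, and the median of the list was 0.70. Of 6 other direct pathway genes 3 did so (Drd1, Slc35d3 at 0.833 and Isl1 at 0.737), and of 3 other indirect pathway genes 2 did (Drd2 and Sp9 at 0.537). Ebf1, a transcription factor of the direct pathway that is also made by vascular mural cells, had -0.30, and Grik3, a kainate receptor subunit, -0.060. These values and counts depend on the mitochondrial share. Once it was also taken out, Grik3 had 0.403 and Ebf1 -0.175, Pdyn rose from 0.484 to 0.835 and Chrm4 from 0.39 to 0.585. Drd1 (0.911) and Isl1 (0.718) fell slightly. Of 8 cortical projection neuron markers, 9 of cerebellum, 6 of thalamus and 5 of midbrain dopamine neurons 0 had an r over 0.5, and the 9 cerebellar genes lay between -0.485 and -0.358. The striatal cholinergic interneuron list was the closest of the lists for other cells, with a median of 0.45. Of its 4 genes 2 had an r over 0.5 (Lhx8 at 0.646 and Chat at 0.569). With the mitochondrial share also taken out, its 4 genes ran from 0.517 (Slc18a3) to 0.792 (Chat). Medians were also above 0 for oligodendrocytes (0.316), microglia (0.302), choroid plexus (0.245) and blood (0.192), with 0 genes over 0.5. Astrocytes (-0.196) and endothelium (-0.034) had medians below 0. Most of the 155 genes over 0.5 were on none of these lists, Sh3rf2, Serpina9, Cd4 and Clspn among them.

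None of the 27 other medium spiny neuron genes passed the test between groups either (0 with an adjusted p-value under 0.05 by edgeR), and 20 of them had a log2 fold change below 0, with a median of -0.086. In the direct pathway Drd1, the receptor through which dopamine raises cyclic AMP, averaged 38.9 ± 11.7 CPM over controls against 35.3 ± 7.52 CPM (SD, n = 13 and 18; log2 fold change -0.14 ± 0.12, SE; p = 0.263, adjusted 0.823 by edgeR). Chrm4, a muscarinic receptor that opposes Drd1, had 17.3 ± 2.63 and 15.3 ± 1.97 CPM (log2 fold change -0.18 ± 0.073, SE; p = 0.0177, adjusted 0.813 by edgeR), with 14 of 18 deltamethrin libraries below the control median. Pdyn, the dynorphin precursor, went the other way at 16.3 ± 3.45 and 18.4 ± 3.21 CPM (log2 fold change 0.17 ± 0.096, SE; p = 0.0961, adjusted 0.813 by edgeR), as did Ebf1 (0.22 ± 0.13). Isl1 had -0.027 ± 0.11 and Slc35d3 -0.096 ± 0.11 (SE).

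In the indirect pathway Drd2, which lowers cyclic AMP, had 20.8 ± 5.30 and 18.7 ± 4.49 CPM (SD, n = 13 and 18), a log2 fold change of -0.16 ± 0.12 (SE; p = 0.208, adjusted 0.817 by edgeR). Sp9, a transcription factor needed for indirect pathway neurons, had -0.055 ± 0.11 and Grik3 0.018 ± 0.16 (SE). Among the 18 genes of both pathways 14 lay below 0 with a median of -0.10, and 0 reached an unadjusted p of 0.05. The smallest p-values there belonged to Rasgrp2, an exchange factor for Rap1 (-0.18 ± 0.10, p = 0.0805), the actinin Actn2 (-0.18 ± 0.11, p = 0.113) and Lrrc10b (-0.21 ± 0.15, p = 0.161), each with an adjusted p of 0.813 by edgeR.

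**Figure D4:**
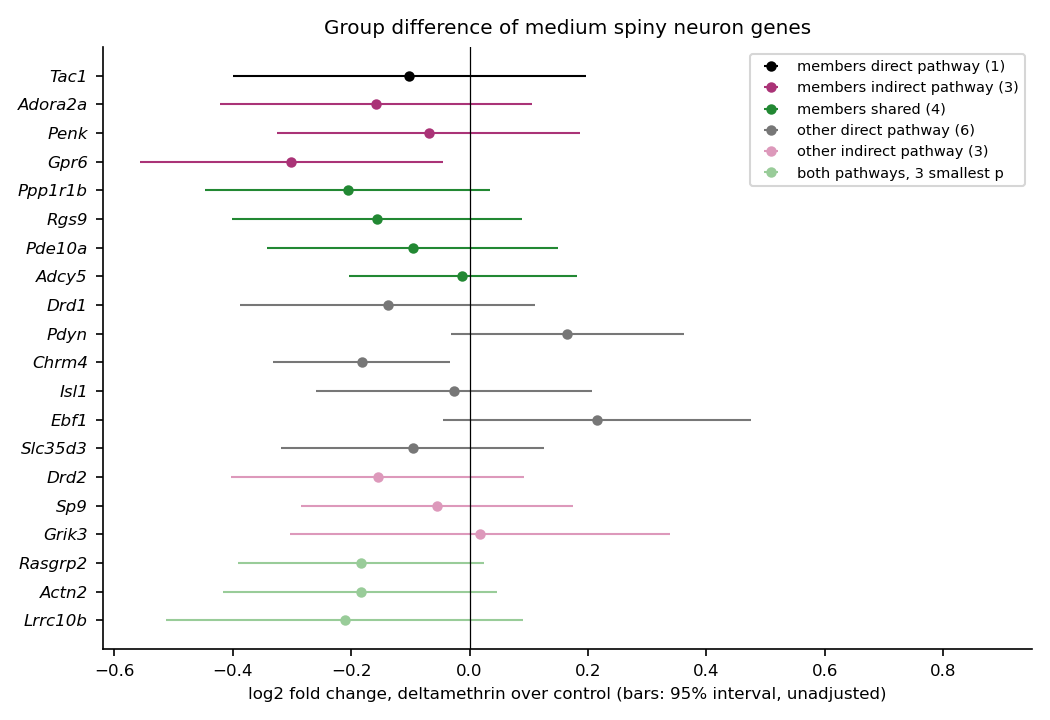
Log2 fold change, deltamethrin over control, of the 8 members, the 6 other direct and 3 other indirect pathway genes and the 3 genes of both pathways with the smallest p-values, with 95% intervals not adjusted for the number of genes. The intervals of Gpr6 and Chrm4 are the ones that exclude 0, and neither gene passed after adjustment over all genes.

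Several lists of markers of other regions and cells also lay on one side of 0, with 0 genes passing after adjustment by edgeR. All 9 cerebellar markers had a log2 fold change above 0 (median 0.27), and their summed level ran from 91.5 over a median of 497.3 to 631.8 CPM in control and from 130.7 over 570.0 to 822.2 CPM in deltamethrin. All 8 choroid plexus markers lay below 0 (median -0.19). Of these 2 had an unadjusted p under 0.05 in the lower direction by edgeR, a class that held 2.37% of all genes. The sum of the 8 ran from 267.9 to 1295 CPM in control and from 248.0 to 726.1 CPM in deltamethrin. Such sums weigh genes by their level. Ttr alone ran from 246.0 to 1209 CPM in control and from 229.3 to 687.3 CPM in deltamethrin, so it made most of this sum. All 5 blood genes lay below 0 (median -0.29; 492.2 to 1670 and 380.5 to 1242 CPM) and all 6 astrocyte genes above 0 (median 0.17; 1395 to 2580 and 1346 to 4371 CPM). Of the astrocyte genes Slc1a2 alone ran from 878.9 to 1955 CPM in control and from 855.0 to 3486 CPM in deltamethrin. The summed level of the 8 members ran from 915.1 over 1083 to 1494 CPM in control and from 708.8 over 1030 to 1517 CPM in deltamethrin. The part of these markers in the values of the members was not tested.

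The remaining lists were mixed. Below 0 lay 6 of 8 cortical projection neuron markers (median -0.060; 788.4 to 1518 CPM in control and 883.3 to 1444 CPM in deltamethrin), 5 of 7 oligodendrocyte genes (-0.015; 4199 to 6225 and 4448 to 6928 CPM) and 2 of 5 microglial genes (0.051; 93.98 to 153.6 and 119.7 to 162.4 CPM). Above 0 lay 5 of 6 thalamic (0.097; 63.6 to 204.2 and 85.5 to 229.0 CPM), 4 of 5 endothelial (0.10; 85.6 to 135.1 and 97.6 to 145.7 CPM) and 3 of 4 cholinergic interneuron genes (0.067; 5.48 to 15.8 and 6.55 to 19.99 CPM). The same held for 4 of 5 midbrain dopamine neuron genes that passed the count filter (0.035; 26.1 to 51.4 and 30.4 to 58.1 CPM). In these mixed lists an unadjusted p under 0.05 by edgeR was reached by Tmem119 of microglia (lower, p = 0.0117) and Cldn5 of endothelium (higher, p = 0.00407). Among all 19529 genes 462 did so in the lower and 391 in the higher direction. Every listed marker found in the table had counts, and 1 of the 6 dopamine neuron genes, Pitx3, did not pass the filter.

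**Figure D5:**
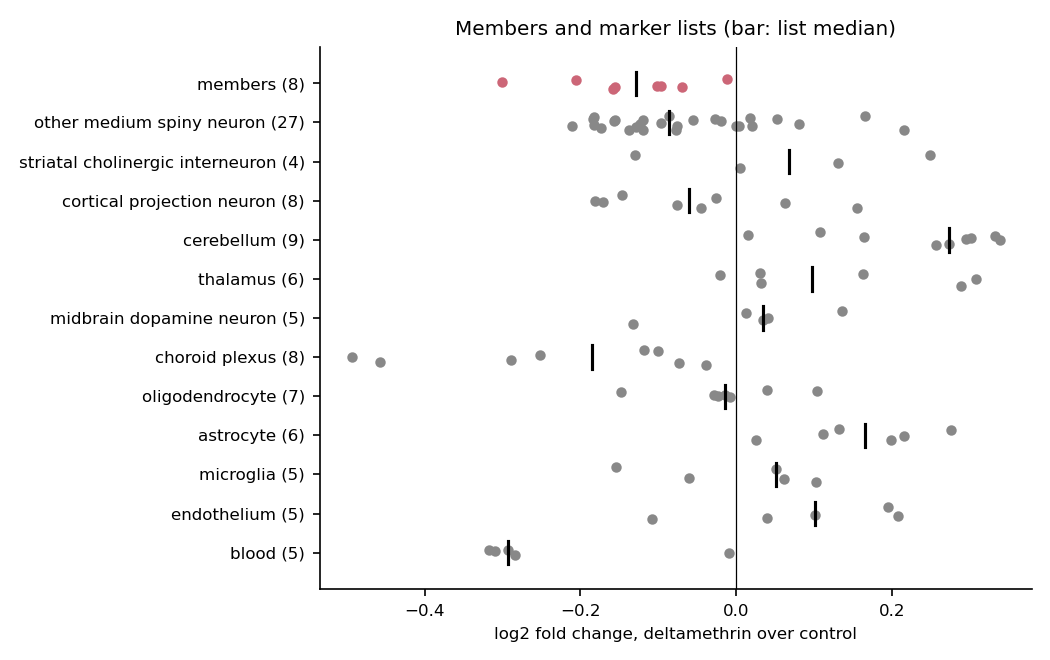
Log2 fold change, deltamethrin over control, of each gene (point) of the members and of the marker lists, with the list median as a black bar and the number of genes in brackets. The members and the choroid plexus and blood lists lie wholly below 0, and the cerebellum and astrocyte lists wholly above.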

How the data were processed

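Whole-number read counts of 31 libraries, keyed by Ensembl gene and not normalized, were deposited by the authors. Per the submitters' processing notes the tools included Trimmomatic, HISAT2, SAMtools and MultiQC with build GRCm38. Counting tool, annotation and strandedness are not given in the sources used here. Columns were matched to samples by title and groups taken from the agent label. The replicate numbers used here follow the order of the sample titles within each group and are not given by the labels. Of the gene IDs 99.3% were found in GENCODE M21 (GRCm38), which gave coordinates and exon lengths. No sample column was left over.

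Genes were kept by filterByExpr (minimum count 10, minimum total 15), leaving 19529, and tested on all 31 libraries with edgeR 4.0.16 in R 4.3.3 (TMM factors, robust quasi-likelihood test without covariates, Benjamini-Hochberg over all genes). Each SE came from dividing the absolute log2 fold change by the square root of F, and 95% intervals use Student's distribution on the SE. Log2 CPM has a prior count of 2. Correlations and within-library differences used two-sided permutation with 100000 resamples (NumPy 2.4.6, SciPy 1.17.1). On simulated counts 94% of 50 genes changed 2-fold, 70% at 1.5-fold, 28% at 1.25-fold and 26% at 0.8-fold were called. Of 19204 unchanged genes 10 were called (deltamethrin against control, 19404 genes in the fit). The counts were drawn gene by gene with the dispersion typical of each gene's level. All members except Adcy5 varied more than most genes of like level, so the shares called can be too high for them.

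The members and lists were chosen with earlier results of these data known, so the shared direction of the 8 members is no independent support. Named are all members, all other direct and indirect pathway genes, the 3 smallest p-values of the list for both pathways, and the 10 genes most like the members, except 1 that is not reported here. Gpr52, a listed indirect pathway gene, was not analysed here. Alternatives were RLE, upper quartile and no factors, other filters, DESeq2 1.42.0, limma 3.58.1 voom, robust=FALSE, 2 covariates, protein-coding genes, another prior count and leaving out each library.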

Additional observations from a re-analysis of the deposited data

How the results depend on the processing

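Across 11 other ways of fitting and 31 fits that left out 1 library, 0 genes passed after adjustment. At an unadjusted p under 0.05 edgeR had 853 genes and DESeq2 986. Of the 8 members 7 kept a log2 fold change below 0 in all of these, with no adjusted p-value under 0.05. Adcy5 turned to 0.015 without scaling factors and ran from -0.053 to 0.025 when 1 library was left out. Gpr6 ran from -0.30 to -0.25 over the alternatives (unadjusted p 0.0125 to 0.0335). The median of all 8 members was -0.074 without scaling factors and ran from -0.188 (without deltamethrin replicate 10) to -0.086 (without control replicate 1). That of the shared members was -0.074 and ran from -0.166 to -0.081, and that of the indirect pathway members -0.116 and from -0.231 to -0.113. Rgs9 was -0.099 without scaling factors. Gpr6 minus Tac1 passed at -0.217 with the mitochondrial rRNA share taken out, and ran from -0.234 to -0.166 (adjusted p 0.0292 to 0.169) when 1 library was left out, passing without control replicates 2, 8 or 10 or deltamethrin replicates 7 or 11. Penk minus Tac1 was -0.035 with that share taken out and ran from -0.11 to 0.061 across the leave-one-out values. The cause of these turns was not tested. Between 21 and 28 of the 28 member pairs passed under every alternative and left-out library. No paired analysis was possible because the labels give no litter or pair that links control and deltamethrin libraries. With 191 to 560 counts per library Gpr6 is the member with the largest counting error.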
